A study of Mus musculus with 27 samples.

Results

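Proliferation genes were followed through muscle injury and repair as a module of 47 genes, of which 18 act in DNA replication, 22 act in mitosis and 7 regulate or accompany both. The members were given as a list of gene names, drawn up with earlier results of these data known. All 47 were found among the 55852 entries of the table of injured muscle and among the 55677 entries of the table of control muscle. RNA was sequenced from bulk muscle of male C57BL/6J WT mice and of mice labelled Gsdme KO, 1, 4, 7 and 14 days (D1, D4, D7 and D14) after cardiotoxin (CTX), a peptide of cobra venom that destroys muscle fibres, with 3 libraries per genotype and day. A further 3 WT libraries came from control muscle that had received no CTX, which makes 27 libraries. The study injected the gastrocnemius and took the control muscle from the uninjured side, whereas the deposited design names the thigh and an unloaded control. The KO is a global loss of Gsdme, which encodes the pore-forming protein gasdermin E, though 1 label field gives these mice as a knockdown. The age of the mice is not given in the sources used here. Values are TPM, the relative abundance of a transcript per length within a library, so that levels can be compared between genes and the depth of the libraries is unknown.

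A cell that divides first loads the MCM helicase onto its origins with the help of Cdc6 and Cdt1, then copies its DNA behind the sliding clamp Pcna with nucleotides supplied by ribonucleotide reductase and thymidylate synthase. It later enters mitosis through Cdk1 and the B cyclins, lines up its chromosomes on the spindle and leaves mitosis when the ubiquitin ligase APC/C destroys the cyclins. Replication genes are classically switched on by E2F factors ahead of S phase, and mitosis genes later by B-Myb, Foxm1 and NF-Y. In injured muscle, cells that are known to divide include muscle progenitors, fibro-adipogenic progenitors, endothelial cells and infiltrating leukocytes, whereas mature fibres do not.

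Promoters of both gene groups were searched for short motifs, and 5 are shown as examples that hold them, chosen for their matches. RefSeq windows of GRCm38.p6 were matched by symbol for 38 of the 47 members, and the 250 bases before the start were searched on both strands. The motifs were E2F (TTTCCCGC, TTTGGCGC, TTTCGCGC or TTTGCCGC), the cell cycle homology region or CHR (TTTGAA), and the NF-Y motif CCAAT. Each line gives the 160 bases before the start, 5′ to 3′ on the strand of the gene, with motif matches of either strand in capitals.
Mcm6 (chr1:128359706-128359865, minus strand): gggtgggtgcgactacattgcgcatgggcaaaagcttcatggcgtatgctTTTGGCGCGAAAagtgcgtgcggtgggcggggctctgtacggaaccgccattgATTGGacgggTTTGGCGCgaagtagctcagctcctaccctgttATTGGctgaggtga
Cdc6 (chr11:98907991-98908150, plus strand): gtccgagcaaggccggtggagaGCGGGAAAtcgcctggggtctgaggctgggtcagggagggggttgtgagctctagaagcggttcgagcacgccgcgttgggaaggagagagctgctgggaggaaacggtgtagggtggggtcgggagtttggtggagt
Cdc20 (chr4:118437344-118437503, minus strand): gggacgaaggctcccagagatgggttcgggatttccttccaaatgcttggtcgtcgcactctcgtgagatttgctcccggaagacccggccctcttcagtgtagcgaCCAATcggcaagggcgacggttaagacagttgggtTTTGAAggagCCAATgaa
Cdk1 (chr10:69352913-69353072, minus strand): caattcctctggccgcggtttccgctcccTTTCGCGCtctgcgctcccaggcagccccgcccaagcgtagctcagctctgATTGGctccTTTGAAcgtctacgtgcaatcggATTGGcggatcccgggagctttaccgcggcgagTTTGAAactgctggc
Ccnb2 (chr9:70421555-70421714, minus strand): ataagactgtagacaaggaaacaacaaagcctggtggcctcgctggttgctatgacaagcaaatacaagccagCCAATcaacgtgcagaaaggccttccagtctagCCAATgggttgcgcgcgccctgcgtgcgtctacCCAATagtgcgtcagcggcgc
An E2F motif was present in 4 of 15 replication promoters (26.7%) and in 1 of 19 mitosis promoters (5.26%), that of Cdk1, and 2.16% of the promoters of 27025 genes held one. CHR and CCAAT stood together in 8 of 19 mitosis promoters (42.1%) and in 2 of 15 replication promoters (13.3%), against 7.34% of all promoters. CCAAT, with or without CHR, was in 84.2% of mitosis promoters, 60% of replication promoters and 37.5% of all. The 3 CCAAT copies of Ccnb2, which encodes cyclin B2, start 87, 54 and 21 bases before the start. The matches are letters in a window and do not show binding, and a window without a match says nothing of the factor.

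Several facts of the libraries bear on every value below. Transcripts of Gsdme were still counted in the KO libraries. The gene was from 2.76 to 4.85 TPM in WT and from 1.28 to 2.17 TPM in KO on D1, and on D14 the KO libraries (1.27 to 1.96 TPM) overlapped the WT libraries (1.46 to 2.26 TPM). On D4 a single library of each genotype stood apart. KO D4 replicate 2 held 143 TPM of the 47 genes in sum, against 427 and 590 TPM in its companions, and WT D4 replicate 1 held 1385 TPM, against 550 and 454 TPM. Both also stood apart in cell type markers, so that the list medians and counts of calls on D4 are given with and without them, an alternative chosen after seeing the data. In KO D4 replicate 2 the sum of 6 macrophage markers was 373 TPM, against 3201 and 2700 TPM, and the sum of 6 muscle progenitor markers was 38.0 TPM, against 412 and 446 TPM. In bulk tissue, fewer dividing cells and less RNA per dividing cell cannot be told apart. The study describes 1 sequencing batch with D1 and control muscle and another with both genotypes at the 4 days. The labels do not say which holds the WT D1 libraries. Batch therefore cannot be told apart from genotype at D1 or from injury in the control comparison. Nor can it be told apart from time in WT between D1 and D4, or from the genotype difference of that step. The design calls the 3 libraries of a group biological triplicates.

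In control muscle most proliferation genes were near the lower end of the scale, and a few were not. The median member was at 0.547 TPM in the mean of 3 control libraries, 1.39 TPM for replication genes and 0.333 TPM for mitosis genes, and 14 of the 47 reached 1 TPM in each control library. Pcna (16.7, 15.2 and 17.3 TPM), Rrm1 (13.2, 12.7 and 11.9 TPM), Stmn1 (9.40, 7.84 and 7.93 TPM) and Mcm7 (7.27, 7.54 and 6.88 TPM) were well above that. These encode the clamp, the large subunit of ribonucleotide reductase, a microtubule destabiliser and a helicase subunit. The lowest members were the checkpoint gene Bub1 and the kinetochore genes Cenpe and Cenpf, at 0.01 or 0.02 TPM in each control library.

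Aurka was the exception among mitosis genes. The kinase that builds spindle poles was at 12.4, 10.7 and 11.9 TPM in control muscle, from 52.3% to 63.8% of the summed TPM of all 22 mitosis genes there. Its partner at the spindle, Tpx2, was at 1.09, 1.57 and 1.58 TPM. Exons of 16 members overlap another gene in GENCODE, Aurka not among them, and it was not stated whether counting used strand. For those 16, reads of the neighbour cannot be told apart, as for Ube2c, of which 592 exon bases lie opposite the troponin gene Tnnc2.

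One day after injury nearly the whole module stood higher in WT muscle. All 3 WT D1 libraries were above all 3 control libraries for 46 of the 47 members, against 39.1% of the 27019 entries with any signal, and Aurka (11.5, 17.9 and 11.3 TPM in the injured table) was the single overlap. Cdk1, the kinase that drives entry into mitosis, went from 0.47, 0.55 and 0.64 TPM in control muscle to 34.4, 77.2 and 16.8 TPM on D1. The lowest D1 library was thus far above the highest control. Cdk1 passed the filter on low values through the D1 libraries alone, so its difference of 4.56 in log2(TPM + 1) is given without a test.

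The ratio of mean TPM, D1 to control, had a median of 32.9 over the 22 mitosis genes and of 8.17 over the 18 replication genes. It ran from 1.15 for Aurka to 105 for Bub1, a kinase of the spindle checkpoint. Ccnb1, the cyclin partner of Cdk1, was 102 times as high and Cdc20, which activates APC/C at the end of mitosis, 27.9 times. Among replication genes Mcm5 of the helicase led with 26.7, from 0.92, 0.76 and 0.61 TPM to 17.4, 33.9 and 9.60 TPM. Pcna rose 6.35-fold from a control level that was already high, to 90.0, 157 and 65.3 TPM. It passed the filter in both groups, with a difference of 2.50 (SE 0.292) and an adjusted p of 0.00126 by limma over all genes tested. The lowest ratios among replication genes were those of Rrm1 (1.53), Mcm7 (2.48) and Ccne2 (3.30), all expressed in control muscle.

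Other mitosis genes stood higher on D1 too, by amounts that differed, and Tpx2 had a ratio of 6.70. Top2a, which untangles sister chromatids, went from 0.23, 0.46 and 0.79 TPM in control muscle to 16.8, 34.7 and 7.67 TPM on D1. Birc5 (survivin) and Aurkb, partners in the chromosomal passenger complex, were 35.0 and 45.9 times as high as in control muscle. Kif11, the motor that pushes spindle poles apart, was 47.2 times as high, Plk1 33.2 times and Ube2c 16.9 times. In each of these genes the lowest D1 library was above the highest control library.

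Among regulators the ratio ran from 4.84 to 41.9. Ccna2, a cyclin used in both S phase and mitosis, was at 0.23, 0.32 and 0.27 TPM in control muscle and at 9.77, 20.4 and 4.10 TPM on D1. Mybl2 was 32.7 times as high, Foxm1 29.5 times, E2f1 11.98 times, the chromatin protein Hmgb2 10.5 times and Stmn1 4.84 times. Among replication genes Tyms was 19.8 times, Rrm2 17.9 times, Ccne1 (cyclin E1) 13.5 times, Mcm6 9.03 times, the thymidine kinase Tk1 5.49 times and Mcm2 5.05 times as high. WT D1 replicate 2 was the highest and replicate 3 the lowest library in all of these genes.

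On D1, 40 of the 42 members tested were called higher by limma with Benjamini-Hochberg adjustment over all genes, and so were 55.4% of all 13041 genes tested, whose median difference was 0.66. Aurka (0.16, adjusted p = 0.552) was not called, and it was called lower with median-of-ratios scaling (-0.58, adjusted p = 0.0151) and quantile normalization (-0.63, adjusted p = 0.0136). Rrm1 (0.51, adjusted p = 0.118) was not called. Of the 42, 22 passed the filter on low values through the D1 libraries alone and had to differ, so that the count is only a description. Chek1, Bub1, Cenpe, Cenpf and E2f8 did not pass it. The D1 libraries themselves were spread widely: replication genes summed to 300, 542 and 184 TPM and mitosis genes to 224, 440 and 99.7 TPM.

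**Figure D1:**
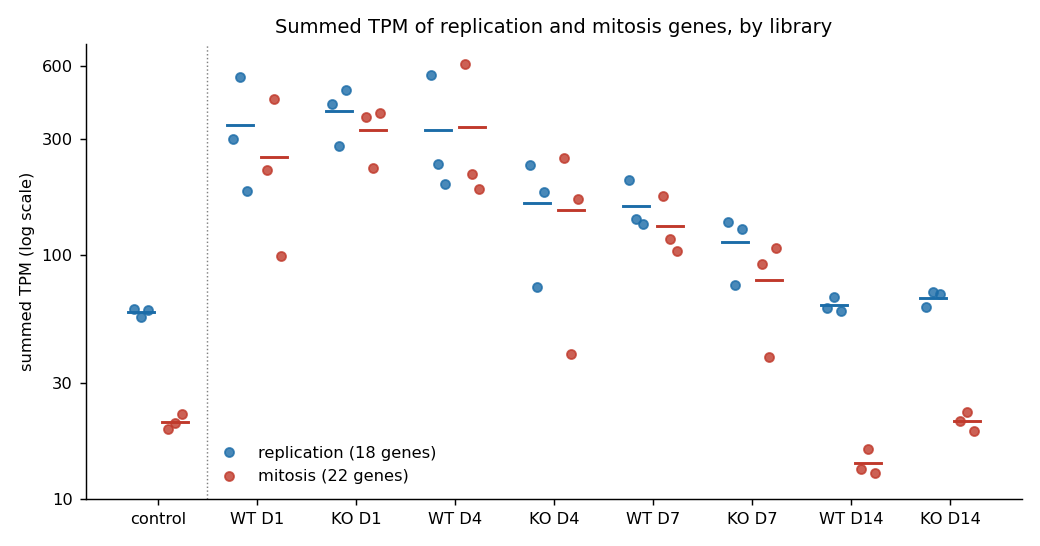
Summed TPM of the 18 replication genes (blue) and the 22 mitosis genes (red) in each library, on a log scale, with lines at group means and the control libraries, which come from a separate table, left of the dotted line. In control and D14 muscle replication genes lie well above mitosis genes, whereas from D1 to D7 both lie close together, and KO D4 replicate 2 and WT D4 replicate 1 stand far from their companions.

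From D1 to D4 in WT muscle, 1 gene of the module was called higher and none lower, and both counts changed with the scaling and the libraries used. By group means 39 of the 47 members were highest on D4, 7 on D1 and 1 on D7. By group medians 23 were highest on D1 and 22 on D4, and without WT D4 replicate 1 the means of 42 were highest on D1. Without WT D1 replicate 3 the means of 28 were highest on D1 and of 19 on D4. The WT peak day by means therefore turns with either of these libraries. On the scale of log2(TPM + 1) the median difference, D4 minus D1, was 0.40 for mitosis genes, 0.53 for regulators and 0.07 for replication genes, against 0.17 for all genes. That of replication genes was -0.13 to -0.15 under the other scalings tried, and without WT D4 replicate 1 it was -0.30, with -0.03 for mitosis genes.

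E2f8, a repressor of the E2F family that rises late in S phase, was the member called in WT between D1 and D4. It stood at 2.49, 3.39 and 0.70 TPM on D1 and at 16.1, 6.42 and 4.66 TPM on D4, so that every D4 library was above every D1 library. The difference was 1.59 (SE 0.521, adjusted p = 0.0363 by limma), where 14.6% of all genes were called higher. Under 16 alternatives its adjusted p ran from 0.0205 to 0.185, and it kept its call in 8 of them, with both D4 libraries that stood apart left out among these (1.13, adjusted p = 0.0372). Of the exons of E2f8, 610 bases lie opposite Gm2788.

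Pcna and Ccne2 had differences of the opposite sign. Pcna was at 115, 56.3 and 36.8 TPM on D4, with a difference of -0.64 (adjusted p = 0.273), and Ccne2, a cyclin of S phase entry, had -0.62 (adjusted p = 0.217). Neither passed the test, and the groups overlapped in WT D4 replicate 1 for Pcna. With both D4 libraries that stood apart left out, Pcna (-1.08, adjusted p = 0.0235), Ccne2 (-1.11, adjusted p = 0.0135) and Aurka (-0.81, adjusted p = 0.0113) fell. In that limma fit 1056 of the 15718 genes tested were called lower.

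Between D4 and D7 in WT, 46 of 47 members had a negative difference, and 2 were called lower, against 9.31% of all genes. The called genes were the licensing factors Cdt1 and Cdc6. Cdt1 went from 18.2, 8.05 and 8.22 TPM to 4.68, 3.70 and 2.94 TPM, a fall of 1.31 with groups that did not overlap (adjusted p = 0.0443). Cdc6 went from 4.43, 1.85 and 1.56 TPM to 1.30, 0.62 and 0.83 TPM (-0.85, adjusted p = 0.0472). Neither was called without WT D4 replicate 1, WT D7 replicate 2 or WT D7 replicate 3. The median was -0.87 for replication genes and -0.94 for mitosis genes, where all genes had -0.24. With both D4 libraries that stood apart left out they were -0.51, -0.42 and -0.15. The 1 member called in that fit, Ccne2, was higher, as were 303 of the 15718 genes tested. The largest difference was that of Plk1, a kinase needed from mitotic entry to cell separation, at -1.65 (adjusted p = 0.0531).

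Ccne2 was the member that went the other way. It was at 4.21, 1.52 and 0.44 TPM on D4 and at 3.56, 3.69 and 2.93 TPM on D7. The D7 libraries were close together and above all but WT D4 replicate 1. The difference of 0.72 was not called (adjusted p = 0.145), and with both libraries that stood apart left out it was 1.2 (adjusted p = 0.0228). Of the exons of Ccne2, 609 bases lie opposite Ints8.

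By D14 the module had fallen in WT muscle. Called lower against D7 were 35 of 47 members, 10 of 18 replication genes, 19 of 22 mitosis genes and 6 of 7 regulators, where 30.9% of all genes were called lower. The medians were -1.04, -1.94 and -1.72, against -0.45 for all genes, and no member had a positive difference. Cdk1 fell most, from 28.5, 16.3 and 18.3 TPM to 0.78, 1.46 and 0.19 TPM, by 3.63 (SE 0.631, adjusted p = 0.00334). Stmn1 had the smallest adjusted p (0.00209) and went from 47.8, 32.3 and 29.2 TPM to 5.38, 5.62 and 3.06 TPM. In both genes the highest D14 library was far below the lowest D7 library.

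Other named genes fell in the same step. Top2a fell by 2.71, to 0.33, 0.39 and 0.42 TPM, Ccna2 by 2.70, to 0.27, 0.32 and 0.17 TPM, and Birc5 by 2.63, to 0.47, 0.76 and 0.44 TPM. Aurkb fell by 2.24, Ccnb1 by 2.03, Plk1 by 2.02 and Kif11 by 1.5. Among regulators Foxm1 fell by 1.78, Hmgb2 by 1.72, E2f1 by 1.38 and Mybl2 by 1.21. Mcm6 fell by 1.97, Ccne1 by 1.22 and Mcm2 by 1.08, whereas Tk1 (2.94, 4.99 and 5.17 TPM on D14, adjusted p = 0.0831) and E2f8 (-1.14, adjusted p = 0.0933) were not called.

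By role, all 3 genes of Cdk1 and the B cyclins, all 5 of the spindle checkpoint and APC/C and all 6 of the spindle and midzone were called lower. Ube2c, which hands ubiquitin to APC/C substrates, fell by 2.67 and Cdc20 by 2.51. Of the 10 licensing and helicase genes 7 were called, led by Mcm5 (-2.06, adjusted p = 0.00805), and of the 5 genes of the clamp and nucleotide supply 2 were called, Tyms (-2.53) and Rrm2. Pcna (-0.94, adjusted p = 0.0697), Rrm1 (-0.69, adjusted p = 0.057) and Mcm7 (-0.90, adjusted p = 0.0636) were not called, although their D14 libraries were all below their D7 libraries. Chek1, the checkpoint kinase of replication stress, was at 1.32, 0.91 and 0.62 TPM on D7 and at 0.14, 1.23 and 0.99 TPM on D14, which overlap. The count of 35 was 6 without WT D14 replicate 3, 9 without WT D7 replicate 1 and from 25 to 32 without any of the other 4 libraries.

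WT D14 and control muscle stand in separate tables, so their levels are set side by side without a test. Replication genes summed to 67.8, 61.0 and 58.9 TPM in their order from highest to lowest on D14 and from 56.0 to 60.1 TPM in control muscle. Mitosis genes without Aurka summed to 7.52 to 13.2 TPM on D14 and 7.05 to 10.5 TPM in control muscle, ranges that overlap. Aurka itself was at 3.64, 2.73 and 5.27 TPM on D14, each below the 10.7 to 12.4 TPM of control muscle. The tables gave nearly equal values for the WT D1 libraries they share, with 128 of 141 member values within 0.05 on the log2(TPM + 1) scale and a largest gap of 0.28, for Mcm7.

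**Figure D2:**
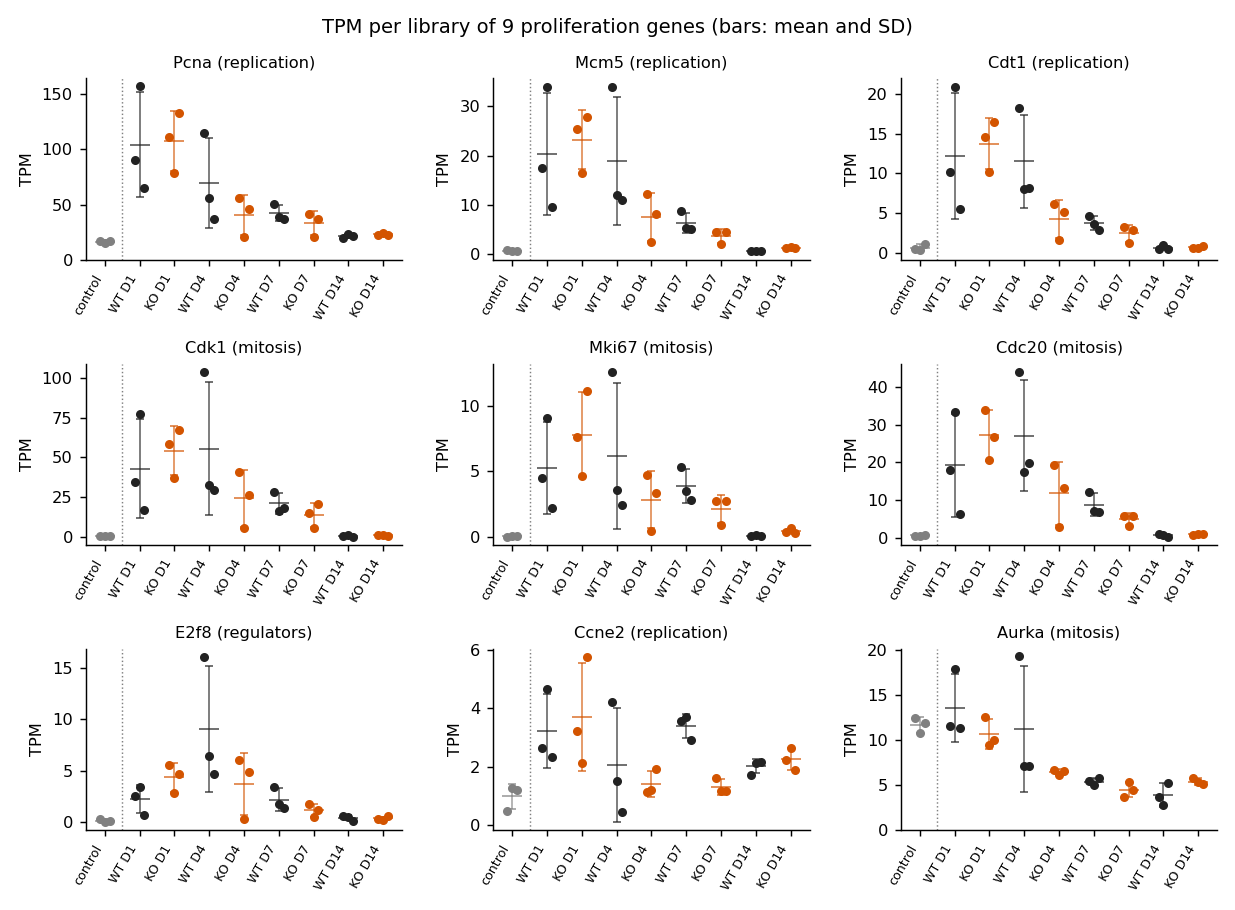
TPM of 9 members in each library (points: libraries; bars: mean and SD of 3; grey control, black WT, orange KO), with the control libraries, from a separate table, left of the dotted line. Pcna, Mcm5 and Cdt1 are high on D1 and fall, Cdk1, Mki67 and Cdc20 are near 0 in control and D14 muscle, E2f8 is highest on WT D4, Ccne2 is higher in WT than in KO on D7, and Aurka starts high in control muscle.

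In KO muscle the group means were highest on D1, and 9 members fell by D4. This held for all 47 members, and for 45 when KO D4 replicate 2 was left out. All 47 had a negative difference between D1 and D4, and 9 were called lower, against 12.2% of all genes. Of these 7 were replication genes (Cdc6, Cdt1, Mcm3, Mcm5, Mcm7, Pcna and Rrm2), 2 were the transcription factors Mybl2 (B-Myb) and E2f1, and none was a mitosis gene. In the limma fit 12 of the 22 mitosis genes had an unadjusted p under 0.05, as had 5728 of the 15718 genes tested. The lowest adjusted p of the mitosis genes was 0.0582.

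Cdc6 had the smallest adjusted p, from 3.24, 2.55 and 3.94 TPM on D1 to 1.26, 0.43 and 0.74 TPM on D4 (-1.24, SE 0.271, adjusted p = 0.0047). Pcna went from 111, 78.9 and 133 TPM to 56.0, 20.5 and 45.6 TPM (-1.47, adjusted p = 0.0152). For both, each D4 library was below each D1 library, with KO D4 replicate 2 the lowest. Cdk1, a mitosis gene, went from 58.2, 37.2 and 67.0 TPM to 40.6, 5.37 and 26.4 TPM, the same log2 difference of -1.47 with a larger error (SE 0.631, adjusted p = 0.102) and an overlap between the groups. The medians of -1.24 for replication and -1.18 for mitosis genes were close, so that the call counts of these groups do not show a difference in size, and all genes had -0.15. With both D4 libraries that stood apart left out, the medians were -0.78 and -0.61. In that fit Cdc6, Cdt1, Mcm3 and Pcna were called lower, as were 1087 of the 15718 genes tested. The count of 9 was 1 without KO D4 replicate 2 or without KO D1 replicate 3, 0 with only the groups compared, 3 without KO D1 replicate 1, 14 without KO D1 replicate 2 and 32 without KO D4 replicate 1.

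The later KO steps gave no calls. From D4 to D7 all 47 differences were negative, with medians of -0.39 for replication, -0.55 for mitosis and -0.15 for all genes. None was called by limma, none had an unadjusted p under 0.05, and 0% of all genes were called lower. With both D4 libraries left out the medians were -0.83, -1.18 and -0.30. In that fit 10 members were called lower, as were 1746 of the 15718 genes tested. Of the 10, 7 were mitosis genes, such as Ccnb1 (-1.74, adjusted p = 0.0321), and the others were E2f8, Gins2 and Mcm5. From D7 to D14 the medians were -0.74 and -1.01 against -0.19 for all genes. An unadjusted p under 0.05 was found for 17 members, and for 3035 of the 15718 genes tested. No member was called, where 88 of the 15718 genes tested were, 75 of them lower (0.477%). Cdk1 came nearest, from 15.0, 5.71 and 20.5 TPM to 1.38, 1.27 and 0.63 TPM (-2.68, adjusted p = 0.0613). Without KO D7 replicate 2, the lowest library of its group, 2 members were called. Ccne2 again went the other way, from 1.62, 1.16 and 1.16 TPM on D7 to 2.23, 2.65 and 1.90 TPM on D14 (0.49, adjusted p = 0.419).

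KO and WT muscle were then compared on each day, to ask whether loss of Gsdme goes with a change of the module. By limma no member was called on any day. On D1 the differences, KO minus WT, were positive for 46 members, with medians of 0.34 for replication, 0.49 for mitosis and 0.56 for regulators against 0.09 for all genes, of which 0.00636% were called. No member had an unadjusted p under 0.05, and no member was higher in all 3 KO libraries than in all 3 WT libraries, against 3.33% of all genes. Without WT D1 replicate 3, the lowest of its group, the medians were -0.03, 0.04 and 0.09. Cenpf of the kinetochore had the smallest p (0.66, adjusted p = 0.873), followed by E2f8 (0.81, adjusted p = 0.873) and Cdc6 (0.38, adjusted p = 0.873).

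On D4 all 47 differences were negative, with medians of -0.96 for replication, -1.07 for mitosis and -1.13 for regulators against -0.28 for all genes. Cdc6 (-0.94), Cdt1 (-1.27) and Mybl2 (-1.13) had the smallest p, each with an adjusted p of 0.212. Cdt1 was at 6.11, 1.62 and 5.16 TPM in KO and at 18.2, 8.05 and 8.22 TPM in WT, without overlap. Of the 47, 25 had an unadjusted p under 0.05, as had 3568 of the 15718 genes tested, and 0% of all genes were called. All 3 KO libraries were below all 3 WT libraries for 5 members, Cdc6, Cdt1, Mcm7, Mybl2 and Aurka, against 11.2% of all genes. With KO D4 replicate 2 and WT D4 replicate 1 left out the medians were -0.09 for replication and 0.07 for mitosis genes, and again no member was called.

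On D7 all 47 differences were negative too, with medians of -0.42, -0.64 and -0.67 against -0.19 for all genes, and 0% of genes were called. Ccne2 was the 1 member with an unadjusted p under 0.05, at 1.62, 1.16 and 1.16 TPM in KO and 3.56, 3.69 and 2.93 TPM in WT (-0.93, adjusted p = 0.776). Tyms, thymidylate synthase, was next, at 4.33, 2.45 and 5.57 TPM against 12.7, 6.29 and 9.10 TPM (-1.02, adjusted p = 0.776), and then Stmn1 (-0.67, adjusted p = 0.776). In 13 members the KO libraries were all below the WT libraries, against 14.6% of all genes, and 7 of these were mitosis genes. Without KO D7 replicate 2 the medians were -0.20, -0.31 and -0.33.

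On D14 levels were low in both genotypes. The medians were 0.08 for replication, 0.18 for mitosis and 0.10 for regulators against 0.08 for all genes, and the first was -0.02 after quantile normalization. By limma 0% of genes were called, and no member had an unadjusted p under 0.05. The KO libraries were all above the WT libraries for 12 members, against 7.37% of all genes. Among them were Mki67, the proliferation antigen Ki-67 (0.40, 0.70 and 0.34 TPM in KO, 0.13, 0.21 and 0.08 TPM in WT), and Prc1 of the midzone (2.23, 1.75 and 1.5 TPM against 0.80, 0.78 and 0.27 TPM). These levels are at the low end of the scale, and none of the 3 smallest p, those of Chek1 (-0.62), Prc1 (0.82) and Aurka (0.42), gave an adjusted p below 1. Of the exons of Prc1, 911 bases lie opposite Rccd1.

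Whether a time step differed between genotypes was tested by interaction terms. None was called by limma for any member, and 0% of all genes were called in each of the 3 steps. For D1 to D4 all 47 interactions were negative, with medians of -1.30 for replication and -1.47 for mitosis genes against -0.38 for all genes, and 25 had an unadjusted p under 0.05, as had 3667 of the 15718 genes tested. Cdc6 (-1.32), E2f8 (-2.08) and Cenpe (-1.47) had the smallest p, each with an adjusted p of 0.204. With both D4 libraries left out the medians were -0.44 and -0.41. For D4 to D7 no member had an unadjusted p under 0.05, and the medians of 0.47 and 0.40 were -0.37 and -0.72 without both D4 libraries. For D7 to D14 the medians were 0.52 and 0.84, and Prc1 and Ccne2 had an unadjusted p under 0.05 (adjusted p = 0.809 each).

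Within each list the differences were spread. In KO from D1 to D4 replication genes ran from -1.92 (Rrm2, the small subunit of ribonucleotide reductase) to -0.49 (Rrm1, its large subunit), mitosis genes from -1.47 (Cdk1) to -0.61 (Nusap1) and regulators from -1.49 (Hmgb2) to -0.26 (Stmn1). In KO against WT on D4 the ends were Rrm2 (-1.47) and Ccne2 (-0.15), Plk1 (-1.44) and Cenpf (-0.20), and E2f8 (-1.27) and Stmn1 (-0.59). On D7 they were Tyms (-1.02) and Rrm1 (-0.20), Kif23 of the midzone (-0.92) and Cenpf (-0.07), and Hmgb2 (-0.88) and Mybl2 (-0.47). Rrm2 was at 31.3, 19.2 and 37.9 TPM on KO D1 and at 12.8, 2.14 and 9.82 TPM on KO D4, without overlap. Rrm1 was at 22.01, 17.2 and 24.4 TPM and at 19.6, 10.1 and 15.8 TPM on the same days, which overlap. The 2 subunits of 1 enzyme thus stood at opposite ends of the replication list in this step.

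**Figure D3:**
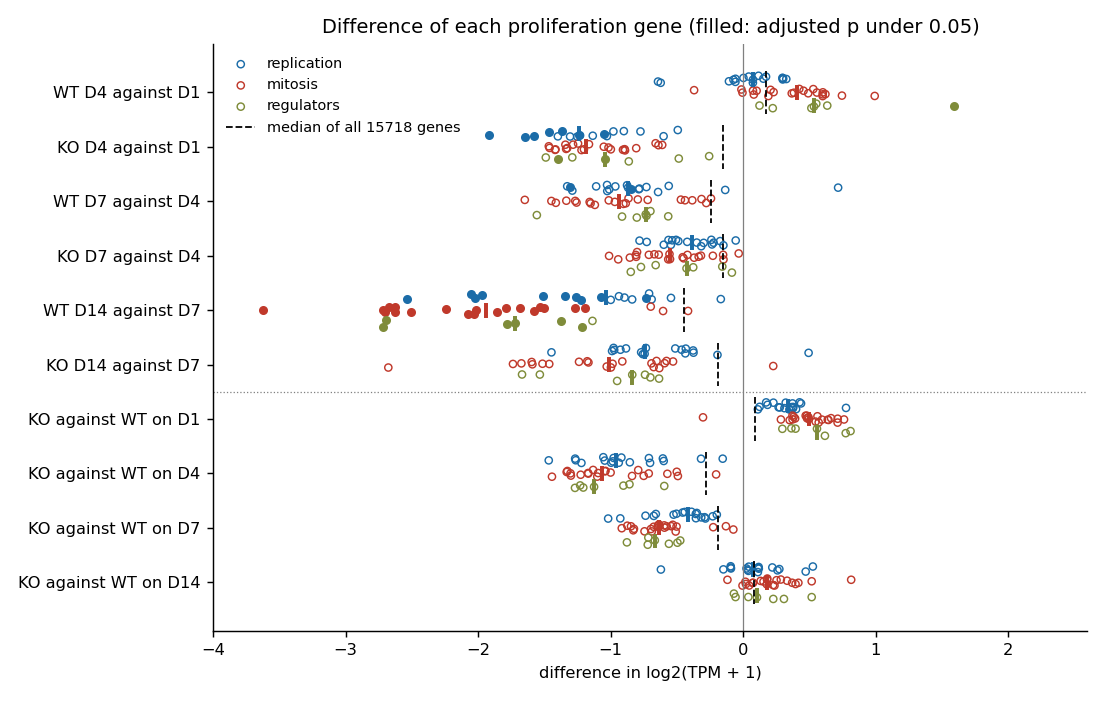
Difference in log2(TPM + 1) of each of the 47 members for 6 time steps and for KO minus WT on each day (open circles, not called; filled circles, adjusted p under 0.05; short bars, list medians; dashed black lines, median of all 15718 genes). Mitosis genes lie further left than replication genes in the WT step from D7 to D14, which holds most of the called points, and no point is filled in the KO against WT rows.

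The balance of mitosis over replication genes was measured as the ratio of their summed TPM within each library, which no scaling of the library can change. The ratio was 0.324 to 0.375 in control muscle and above that in every library from D1 to D7. In WT it was 0.745, 0.813 and 0.543 on D1, and every WT D4 library (1.11, 0.915 and 0.959) was above every D1 library. It was 0.775 to 0.859 on D7 and 0.217 to 0.236 on D14. The order of D4 over D1 in these sums was thus the same without WT D4 replicate 1. Abundant genes carry the sums, and the ratio of the median genes, taken on log2(TPM + 0.1), overlapped between D4 (0.718, 0.650 and 0.641) and D1 (0.601, 0.644 and 0.528). Without Aurka WT D4 was again above D1, whereas D14 overlapped control muscle, with 0.117 to 0.176 in control muscle, 0.482 to 0.780 on D1, 0.885 to 1.07 on D4 and 0.128 to 0.195 on D14.

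In KO the ratio was 0.886, 0.806 and 0.805 on D1 and 1.07, 0.532 and 0.940 on D4. The 2 KO D4 libraries other than replicate 2 were within or near the range of WT D4, and replicate 2 was as low as the lowest WT D1 library. It was 0.508 to 0.836 on D7. On D14 the KO libraries (0.343, 0.321 and 0.274) were all above the WT libraries, and they were so without Aurka as well (0.201 to 0.249, against 0.128 to 0.195). By the ratio of median genes KO D14 (0.303, 0.324 and 0.256) overlapped WT D14 (0.247, 0.225 and 0.272). These ratios sum over the members and are given without a test.

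The list medians of each time step were set side by side as well. The median of replication genes minus that of mitosis genes was -0.84 from control to WT D1, -0.33 from D1 to D4, 0.06 from D4 to D7 and 0.90 from D7 to D14. In KO muscle it was -0.05, 0.17 and 0.28 over the last 3 of these steps. The value from control to WT D1 counts only the 17 replication and 19 mitosis genes that passed the filter on low values. Of the 42 members that passed there, 22 did so through the D1 libraries alone, so that this value is only a description. Other replication and mitosis genes, from lists of 40 and 57 genes without members, were measured in the same way in WT. They had medians of -0.79 and -1.16 from D7 to D14, and a ratio of sums of 0.314 to 0.333 in control muscle, 0.731 to 0.944 on D1, 1.08 to 1.30 on D4 and 0.707 to 0.802 on D14. In these lists each WT D14 ratio was above each control ratio, taken from the other table, and in the members each was below with Aurka and overlapped without it. The KO D14 ratios of these other genes were 0.707 to 0.830 and overlapped those of WT D14. In the members each KO D14 ratio of sums was above each WT D14 ratio.

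**Figure D4:**
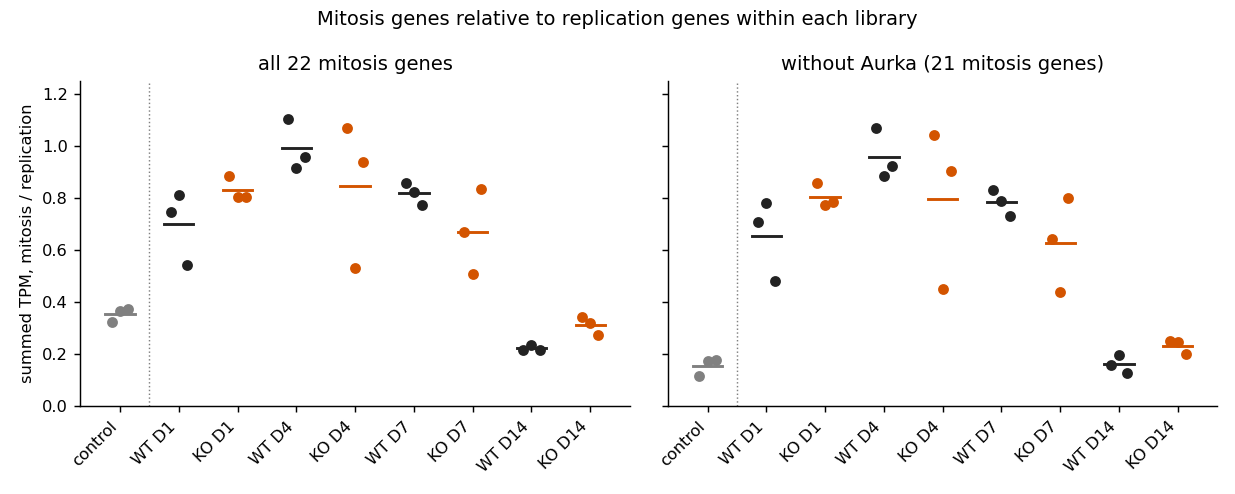
Ratio of summed TPM of mitosis genes to that of replication genes in each library (points), with lines at group means (grey control, black WT, orange KO), for all 22 mitosis genes and without Aurka. The WT D4 libraries lie at 0.915 or more with all genes and above all WT D1 libraries, and the D14 and control libraries lie lowest.

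Genes of the pathway outside the module were counted in the same fits. From D7 to D14 in WT, 13 of 40 other replication genes, 36 of 55 tested other mitosis genes and 10 of 15 genes of the G1 phase (cyclins D, their kinases and their regulators) were called lower, against 30.9% of all genes. From D1 to D4 in KO these counts were 11 of 40, 8 of 55 and 5 of 15, against 12.2% of all genes, and the median of other mitosis genes was -0.97. In KO against WT none of these genes was called by limma on any day. On D4 an unadjusted p under 0.05 was found for 13, 26 and 5 of them, and for 3568 of the 15718 genes tested.

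Members moved with the markers of infiltrating and progenitor cells, and against those of mature fibres. Each library's log2 summed TPM was taken as its deviation from the group mean, which leaves out differences between groups, and over the 24 injured libraries Pearson's r was 0.979 between replication and mitosis genes. The sum of all members gave 0.882 with 6 macrophage markers, 0.788 with 6 muscle progenitor markers and 0.726 with 6 fibro-adipogenic progenitor markers. It gave 0.788 with 6 neutrophil markers, 0.0785 with 6 endothelial markers and -0.869 with 8 markers of mature fibres. With 6 lymphocyte markers, which were near the lower end of the scale, r was 0.726 as well. The values share their libraries and the fixed total of TPM, and they are a description.

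The marker sums show which days and libraries this rests on. Macrophage markers (such as Adgre1 and Csf1r) were at 133 to 171 TPM in control muscle, 677 to 2970 in WT D1, 2568 to 3583 in KO D1, 2271 to 4494 in WT D4, 373 to 3201 in KO D4 and 145 to 510 in WT D14. Muscle progenitor markers (Pax7, Myf5, Myod1, Myog, Mymk and Mymx) summed to 101 to 161 TPM in WT D1, 97 to 121 in KO D1 and 510 to 1085 in WT D4. Proliferation genes thus stood high on D1 at a lower level of this sum. The sum does not tell dividing progenitors apart from cells that differentiate. All 6 macrophage markers reached 1 TPM in each injured group, and of the 6 lymphocyte markers at most 3 did, with sums of 0.80 to 10.1 TPM over the injured libraries. Mature fibre markers were at 39481.5 TPM in WT D4 replicate 1 and 188016 TPM in KO D7 replicate 2, the highest and lowest library of their groups in proliferation genes. The part of these cell types in the differences of the module was not tested.

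**Figure D5:**
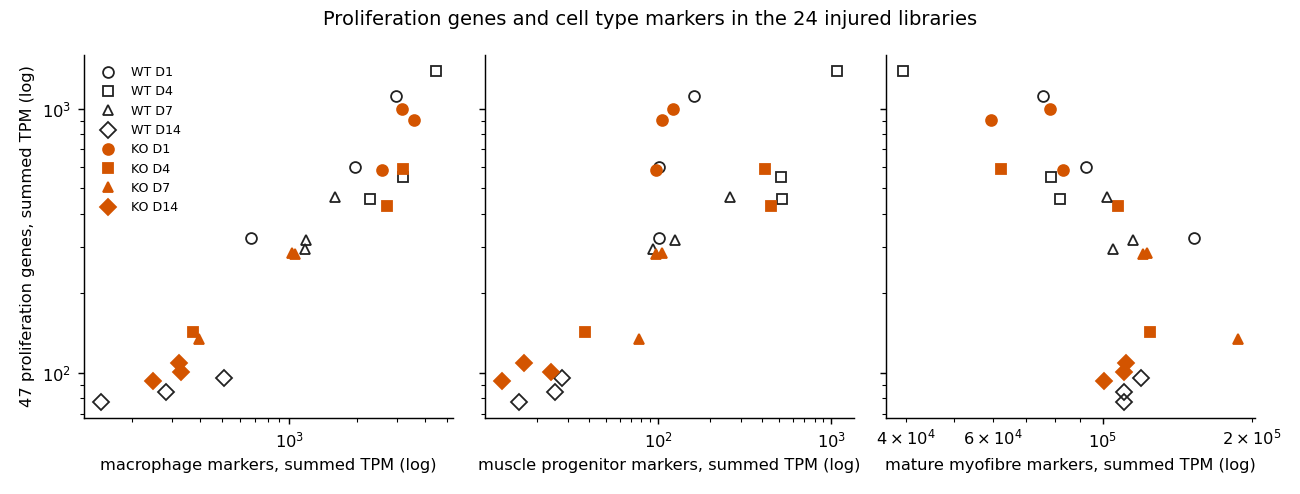
Summed TPM of the 47 members against summed TPM of macrophage, muscle progenitor and mature fibre markers in the 24 injured libraries (both axes on log scales; open black WT, filled orange KO; circle D1, square D4, triangle D7, diamond D14). KO D4 replicate 2 lies with the D7 and D14 libraries at 143 TPM of members and 373 TPM of macrophage markers, and WT D4 replicate 1 lies at the upper end of both.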

How the data were processed

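The authors deposited TPM values per gene in 2 tables that were quantified separately, and no counts, so that tests stayed within a table. The submitters' processing notes name mm10, and the aligner and counter are not given in the sources used here. Genes at 1 TPM or more in at least 3 libraries were kept (15718 of 55852 entries of the injured table, 13041 of 55677 of the control table), and log2(TPM + 1) was fitted with limma 3.58.1 in R 4.3.3 (trended variance, Benjamini-Hochberg adjustment over all genes kept, two-sided, threshold 0.05). A single fit held the 8 groups of 24 injured libraries, and another held 3 control and 3 WT D1 libraries. A fold on this scale understates the change of low genes. The fit was also run on simulated data with independent noise per gene and library. Those lack the shifts of whole libraries seen here and lend no support to the calls. Members and gene lists were chosen with earlier results of these data known. Named were a fixed set of examples, the members at either end of each list, those called where 5 or fewer were, and the 3 lowest p between genotypes. Tpx2, and members named for a call or an overlap, were chosen after their values were seen, as were the ratio without Aurka and the fits without both D4 libraries. Alternatives were other scalings, filters, pseudocounts, library weights, a replicate block and each library left out. Exon overlaps were read from GENCODE M21. Of the 3 libraries per group, the labels do not say that they came from separate animals beyond the word triplicate. In the injured fit each p-value uses a spread between libraries pooled over all 8 groups, not that of the groups compared. The groups differed in spread. The SD of the mean log2(TPM + 1) of mitosis genes was 0.841 in WT D4 and 1.03 in KO D4. It was 0.0952 in WT D14 and 0.0637 in KO D14.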

Additional observations from a re-analysis of the deposited data

How the results depend on the processing

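Over the alternatives no difference of a named member that was called changed sign. In the median, same-numbered libraries did not deviate together (r of 0.00566 over 84 pairs, against 0.00179 over 168 others). Single same-numbered pairs ran from -0.475 to 0.442, so that pairing of some libraries is not excluded. With a replicate block the calls were 40 for WT D1 against control, 1 for WT D4 against D1 and 3 for WT D7 against D4. They were 35 for WT D14 against D7, 11 for KO D4 against D1 and 0 elsewhere. The cause of the changes below was not tested.

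Members called changed as follows. WT D1 against control had 19 with a minimum of 5 TPM, where fewer genes were tested, and 38 higher and 1 lower (Aurka) with median-of-ratios or quantile scaling. WT D4 against D1 had 4 without both D4 libraries (1 higher, 3 lower), 2 with weights or quantile scaling (1 higher, 1 lower), 3 with median-of-ratios scaling (1 higher, 2 lower), 1 lower (Pcna) with the 50 most abundant genes left out and 0 with a pseudocount of 0.1, no filter or only the groups compared. WT D7 against D4 had 1, Ccne2 higher and none lower, with the 50 genes left out or without both D4 libraries, and Ccne2 was also the 1 called higher among 39 with weights, 4 with median-of-ratios and 9 with quantile scaling; it had 0 with a pseudocount of 0.1, no filter or only the groups compared. KO D4 against D1 had 22 without the 50 genes, 21 with median-of-ratios, 23 with quantile scaling, 4 without both D4 libraries, 5 without a filter and 0 with only the groups compared. KO D7 against D4 had 10 without both D4 libraries. KO D14 against D7 had 44 with weights, 2 without the 50 genes, with median-of-ratios or with quantile scaling, and 1 with a pseudocount of 0.1. KO against WT on D7 had 1 with weights. The number of all genes called changed with the setting too. With weights, 10595 of the 15718 genes tested were called for WT D7 against D4. They were 7861 for KO D14 against D7 and 533 for KO against WT on D7. For KO D4 against D1, 4106 were called with median-of-ratios and 4204 with quantile scaling. Without the 50 genes, 4187 of 15668 were called in that step.

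With 1 library left out, the count ran from 0 to 2 for WT D4 against D1, 0 to 4 for WT D7 against D4, 6 to 32 for WT D14 against D7, 1 to 32 for KO D4 against D1, 0 to 1 for KO D7 against D4 and 0 to 2 for KO D14 against D7. The WT count between D1 and D4 was 0 without WT D1 replicate 1, WT D1 replicate 3 or WT D4 replicate 2. The count between D4 and D7 in WT was 4 without WT D4 replicate 3 and 1 without WT D7 replicate 1. KO against WT stayed at 0 on every day with any library left out.

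The median of replication minus that of mitosis genes changed as follows. WT D1 against control gave -1.06 without the 50 genes, -1.71 with a pseudocount of 0.1 and -0.62 with no filter. WT D7 against D4 gave -0.0852 without both D4 libraries. WT D14 against D7 gave 1.32 without the 50 genes, 1.84 with 0.1 and 1.10 with median-of-ratios. KO D4 against D1 gave -0.18 without both D4 libraries and -0.17 with weights, and KO D7 against D4 gave 0.34 and 0.0537. KO D14 against D7 gave 0.54 without the 50 genes, 0.42 at 5 TPM, 0.52 with weights, 0.93 with 0.1 and 0.38 with median-of-ratios. KO against WT gave -0.22 on D1 with 0.1; -0.17 on D4 without both D4 libraries, -0.12 with weights and 0.23 with 0.1; 0.0894 on D7 with weights and 0.14 with 0.1; and -0.25 on D14 without the 50 genes and -0.39 with 0.1. With 1 library left out it ran from 0.16 to 0.48 (KO D14 against D7), -0.18 to 0.20 (KO D4 against D1), -0.0010 to 0.34 (KO D7 against D4) and -0.0852 to 0.25 (WT D7 against D4), and for KO against WT from -0.28 to -0.0668 on D1, -0.0336 to 0.29 on D4 and 0.11 to 0.32 on D7.

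Depth is unknown from TPM, so values come without a counting error, and levels under 1 TPM carry little weight.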
